A study of Homo sapiens with 4 samples.

Results

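The mitochondrial ribosomal protein genes of K562 cells were compared between cells treated for 3 h with 5 µM clofarabine in 0.005% DMSO and cells treated for 3 h with DMSO, 2 samples each. K562 is an established human leukaemia line with erythroid features, so every sample represents 1 line, and clofarabine is a deoxyadenosine analogue that blocks DNA synthesis. The members were all gene symbols of the table that begin with MRPL or MRPS and a number and hold no hyphen, 79 of 23615 genes. They comprise 47 symbols named for the large subunit, 29 named for the small subunit and 3 pseudogenes. The antisense transcript of MRPL23 was left out as the only matching symbol with a hyphen. The libraries are called C0 and C1 (clofarabine) and V0 and V1 (DMSO). The table marks its conditions by a letter alone, C taken here for clofarabine and V for vehicle, and were the letters the other way round, all directions would turn.

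Mitochondrial ribosomes translate the few mRNAs of the mitochondrial genome, all of which encode subunits of the respiratory chain and the ATP synthase. Their RNAs are made in the organelle, whereas all of their proteins are encoded in the nucleus, made on cytosolic ribosomes and imported. Some of the proteins descend from bacterial ribosomal proteins and others are particular to mitochondria. The small subunit decodes the mRNA, and the large subunit joins amino acids and passes the chain through an exit tunnel to the inner membrane.

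Transcripts of 4 members rose with clofarabine and none fell, at an adjusted p under 0.05, the threshold for a call. MRPL33, the counterpart of bacterial L33, stood at 45.7 and 58.2 CPM in C0 and C1, against 43.1 and 33.5 CPM in V0 and V1 (CPM is the fragment count scaled by the TMM-adjusted library size). MRPL47, the counterpart of bacterial L29 at the mouth of the exit tunnel, stood at 149 and 166 CPM in clofarabine and at 127 and 119 CPM in DMSO. MRPS21, the counterpart of bacterial S21, stood at 143 and 164 CPM in clofarabine and at 116 and 127 CPM in DMSO. In these genes C1 was the highest library, C0 the second, and the groups did not overlap. The same order held for MRPS33, a mitochondria-specific protein of the small subunit, at 78.3 and 83.5 CPM in clofarabine and 65.8 and 63.2 CPM in DMSO. The log2 fold changes were 0.46 (SE 0.12, edgeR's adjusted p = 0.0369) for MRPL33, 0.36 (SE 0.074, edgeR's adjusted p = 0.0074) for MRPL47, 0.34 (SE 0.077, edgeR's adjusted p = 0.0195) for MRPS21 and 0.33 (SE 0.081, edgeR's adjusted p = 0.0291) for MRPS33. These correspond to rises of 1.38, 1.28, 1.26 and 1.26 times. The adjustment covers all 11761 genes tested, of which 1.54% rose and 1.03% fell. The labels do not tell separate cultures from repeat preparations of 1 culture, so these p-values reflect the spread among the 4 libraries, which may be technical.

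**Figure D1:**
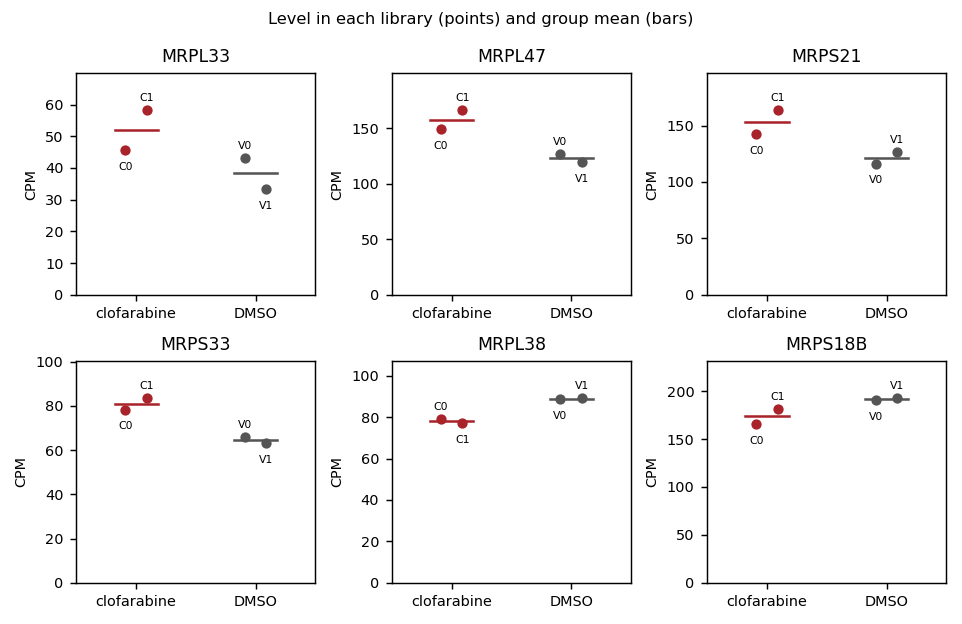
CPM (vertical axis, from 0) of the 4 called members and of MRPL38 and MRPS18B in the clofarabine libraries C0 and C1 (left) and the DMSO libraries V0 and V1 (right), with a bar at each group mean. In the 4 called members both clofarabine libraries stand above both DMSO libraries with C1 the highest, whereas MRPL38 and MRPS18B stand lower in both clofarabine libraries.

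The promoters are shown for the 4 called members, chosen by their call. All of them hold the letters CCGGAAG, the core that ETS factors such as GABP bind, close to the annotated start. Promoters of nuclear genes for mitochondrial proteins often carry sites for GABP, NRF1 and YY1. Each stretch runs 5′ to 3′ from 100 bases before the start to 20 bases after it, in RefSeq's GRCh38.p14, a later build than the hg19 of the expression table. Capitals mark matches on either strand to CCGGAAG or to AAGATGGC, the core bound by YY1. The stretches are chr2:27771619-27771738 on the + strand for MRPL33, chr3:179604619-179604738 on the - strand for MRPL47, chr1:150293761-150293880 on the + strand for MRPS21 and chr7:141014933-141015052 on the - strand for MRPS33.
MRPL33: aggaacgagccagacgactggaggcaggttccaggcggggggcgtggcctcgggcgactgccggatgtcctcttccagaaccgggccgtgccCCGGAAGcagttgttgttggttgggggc
MRPL47: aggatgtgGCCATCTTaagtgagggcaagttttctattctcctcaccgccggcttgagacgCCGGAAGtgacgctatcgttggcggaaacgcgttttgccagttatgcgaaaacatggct
MRPS21: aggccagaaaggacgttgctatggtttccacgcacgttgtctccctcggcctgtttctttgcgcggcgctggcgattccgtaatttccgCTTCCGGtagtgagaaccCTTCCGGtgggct
MRPS33: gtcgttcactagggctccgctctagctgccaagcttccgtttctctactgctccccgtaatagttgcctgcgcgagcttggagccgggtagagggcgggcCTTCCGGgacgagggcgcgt
The ETS letters begin at position −8 in MRPL33, −39 in MRPL47, −11 and 8 in MRPS21 and 1 in MRPS33, counted from the start, and MRPL47 holds the YY1 letters at −92. Outside the printed stretch, MRPS33 also holds a match to the core of the NRF1 site, at −155.

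A RefSeq window from 250 bases before to 50 after the start was matched by symbol for 67 of the 76 protein-coding members. CCGGAAG occurred in 28 of these windows (41.8%), against 20.9% of the 9287 windows of tested genes and 10.7% of all 27305 windows. AAGATGGC occurred in 20 (29.9%), against 5.93% of tested genes and 3.03% of all windows. The core of the NRF1 site, given by its name, occurred in 7 (10.4%), against 12.7% of tested genes and 6.28% of all windows. The E-box CACGTG, which MYC and MAX can bind, occurred in 6 (8.96%), against 10.6% and 7.43%. Both strands were searched, and no searched core contains another. The median log2 fold change was 0.11 with the ETS letters and 0.090 without them, and 0.15 with the YY1 letters and 0.090 without. It was 0.090 with the NRF1 core and 0.11 without, and 0.16 with the E-box and 0.099 without. Median relative transcript length, defined below, was 0.33 with the ETS letters and 0.46 without, and 0.37 with the YY1 letters and 0.35 without. It was 0.47 with the NRF1 core and 0.36 without, and 0.53 with the E-box and 0.35 without. None of these differences was tested. The 4 most negative estimates of each subunit, none of them called, differed in these letters. MRPL38 holds both the ETS and the YY1 letters, MRPL43 and MRPS16 the ETS letters, and MRPS18B and MRPS30 the YY1 letters. MRPL4 and MRPS2 hold no searched core, and MRPL23 had no matched window. A match of letters is a description of the window and not a site.

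All 79 members passed edgeR's filter on low counts, so the counts below cover every member. The 3 pseudogenes, MRPL42P5, MRPL45P2 and MRPS31P5, had means of 2.17, 1.74 and 1.97 FPKM and log2 fold changes between 0.10 and 0.38, and none was called. They are left out from here on. Transcripts of the 76 protein-coding members were spread over 25.1-fold in FPKM, the authors' level per transcript length. MRPS21 had the highest mean over both groups, at 351 ± 56.5 FPKM (SD over the 4 libraries), followed by MRPL41, a mitochondria-specific protein, at 325 ± 29.7 FPKM and MRPL20 at 296 ± 33.2 FPKM, and MRPS24 came second in the small subunit at 240.5 ± 19.6 FPKM. The lowest levels in the large subunit were those of MRPL19 at 13.96 ± 1.14 FPKM and MRPL17 at 18.7 ± 0.791 FPKM, and in the small subunit those of MRPS31 at 22.9 ± 1.90 FPKM and MRPS14 at 25.9 ± 1.42 FPKM. Within every library MRPL41 was above MRPL20, MRPL17 above MRPL19 and MRPS14 above MRPS31, but MRPS21 was below MRPL41 in V0, at 294 and 317 FPKM, so that the order of these 2 does not hold in each library. The median member had 97.4 FPKM. Every member had at least 209 fragments in every library.

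Of the 76 members, 62 (81.6%) had a positive log2 fold change, against 50.6% of all tested genes. The median was 0.11, and that of all tested genes was 0.0020. At an unadjusted edgeR p under 0.05, 21 members were higher and 2 lower, where 8.17% and 6.06% of all tested genes were. Both clofarabine libraries exceeded both DMSO libraries in 33 members, and both were below in 3, where 22% and 21.3% of all tested genes showed these patterns. The shortest length class, defined below, holds 1177 tested genes, 40 of the members among them. Of these 1177 genes, 69.1% had a positive log2 fold change, against 87.5% of the 40 members. At an unadjusted edgeR p under 0.05, 271 of the 1177 were higher and 28 lower, against 17 and 0 of the 40. Both clofarabine libraries exceeded both DMSO libraries in 425 of the 1177 and were below in 111, against 21 and 1 of the 40. These differences were not tested. Estimates of the 76 members ran from −0.19 in MRPL38 to 0.46 in MRPL33. The 95% interval lay within a 1.5-fold change in either direction for 75 of the 76 members, the exception being MRPL33 with an upper bound of 0.71 on the log2 scale.

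**Figure D2:**
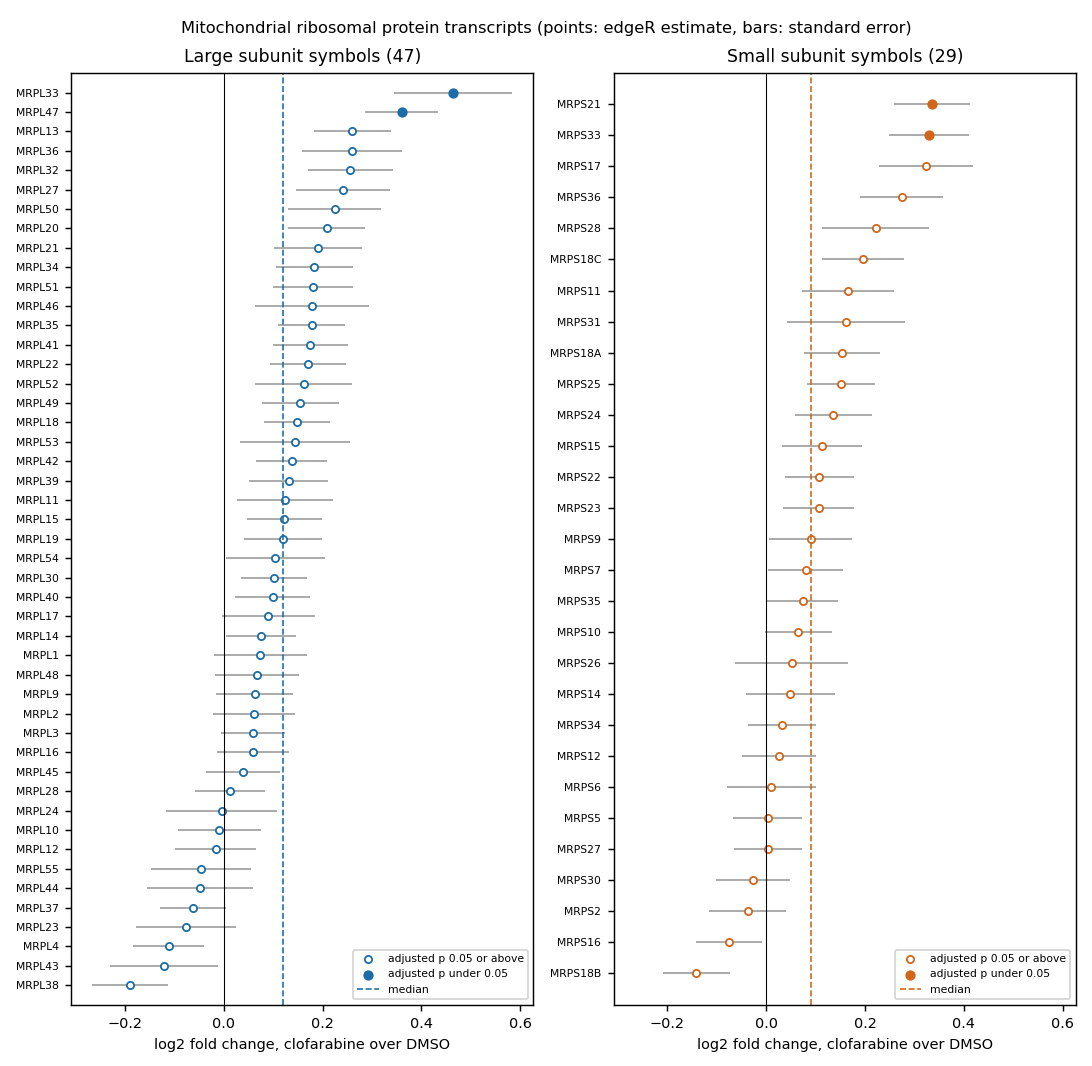
Log2 fold change of clofarabine over DMSO (horizontal axis) for the 47 large subunit symbols (left) and 29 small subunit symbols (right), with edgeR standard errors as bars, filled points for an adjusted p under 0.05 and a dashed line at each median. Of the 76 estimates 62 are positive, and the medians are 0.12 for the large and 0.090 for the small subunit.

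The medians of the subunits were close. Among the 47 large subunit symbols, 2 rose, none fell and 37 had a positive estimate, with a median log2 fold change of 0.12. Among the 29 small subunit symbols, 2 rose, none fell and 25 had a positive estimate, with a median of 0.090. No test of this difference between medians was made, because members share their libraries and 2 samples against 2 cannot give a two-sided exact permutation p below 0.333. Structures place MRPS30 and MRPS18A in the large subunit, and MRPS36, now called KGD4, in the 2-oxoglutarate dehydrogenase complex. Assigned by structure, the medians were 0.12 over 49 large and 0.085 over 26 small subunit genes. Members with a bacterial counterpart had a median of 0.096 (46 genes, 3 of which rose), and mitochondria-specific members one of 0.11 (28 genes, MRPS18B among them, 1 of which rose). MRPS18A and MRPS36 were counted in neither group.

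Among proteins of the stalks, through which translation factors and tRNAs are handled, no member was called. MRPL12, the factor-binding protein of the L7/L12 stalk, had 157 and 193 CPM in clofarabine and 170 and 185 CPM in DMSO, with C0 the lowest and C1 the highest library. Its log2 fold change was −0.016 (SE 0.081), and that of MRPL10, which anchors it, was −0.0089 (SE 0.085). MRPL11, at the base of that stalk, had 86.0 and 113 CPM in clofarabine and 94.7 and 89.6 CPM in DMSO, so that both DMSO values lay between the clofarabine values. The log2 fold change was 0.12 (SE 0.097) for MRPL11 and 0.074 (SE 0.094) for MRPL1, of the stalk that guides tRNAs out.

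Of the proteins around the exit tunnel described here, MRPL47 was the only called member. MRPL22 and MRPL24, which border the tunnel and its exit, had log2 fold changes of 0.17 (SE 0.078, edgeR's adjusted p = 0.320) and −0.0045 (SE 0.11). MRPL22 stood at 87.6 and 94.2 CPM in clofarabine and 82.2 and 79.8 CPM in DMSO, without overlap. MRPL24 stood at 44.8 and 61.3 CPM in clofarabine and 55.3 and 52.5 CPM in DMSO, with the DMSO values inside the clofarabine range. MRPL4, a wall of the tunnel, had a log2 fold change of −0.11 (SE 0.072) and MRPL23, at its exit, one of −0.077 (SE 0.10). MRPL44 and MRPL45, of which the second tethers the ribosome to the inner membrane, had values of −0.048 (SE 0.11) and 0.040 (SE 0.075).

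The central protuberance, where the large subunit meets the head of the small one, held the lowest estimate. MRPL38 had 79.2 and 77.0 CPM in clofarabine and 88.8 and 89.2 CPM in DMSO. Both clofarabine libraries were lower, by a log2 fold change of −0.19 (SE 0.076) that did not pass the test (edgeR's adjusted p = 0.242). Other proteins of this region had log2 fold changes of 0.18 (SE 0.12) for MRPL46, 0.099 (SE 0.076) for MRPL40 and 0.067 (SE 0.085) for MRPL48. MRPL46 had 46.1 and 63.3 CPM in clofarabine and 46.0 and 51.4 CPM in DMSO, so that C1 stood apart and C0 matched V0. Of the remaining large subunit extremes, MRPL13 (0.26, SE 0.078, edgeR's adjusted p = 0.0865) and MRPL36 (0.26, SE 0.10, edgeR's adjusted p = 0.222) were higher in both clofarabine libraries, and MRPL43 (−0.12, SE 0.11) was lower in both, without passing the test.

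The 3 genes named for bacterial S18 differed in the sign of their estimates. MRPS18A showed a log2 fold change of 0.15 (SE 0.077, edgeR's adjusted p = 0.381) and MRPS18C one of 0.20 (SE 0.083, edgeR's adjusted p = 0.273). MRPS18B had 166 and 181 CPM in clofarabine and 191 and 193 CPM in DMSO, lower in both clofarabine libraries, with a log2 fold change of −0.14 (SE 0.068, edgeR's adjusted p = 0.350). None of the 3 passed the test, and the difference between them was not tested.

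In the small subunit, MRPS17, the counterpart of bacterial S17, had 44.8 and 47.5 CPM in clofarabine and 36.9 and 37.0 CPM in DMSO, without overlap. Its log2 fold change was 0.32 (SE 0.095, edgeR's adjusted p = 0.0783). MRPS12, a protein of the decoding centre, had a log2 fold change of 0.026 (SE 0.075), MRPS7 in the head one of 0.080 (SE 0.076), MRPS15 one of 0.11 (SE 0.081) and MRPS27, a pentatricopeptide repeat protein, one of 0.0032 (SE 0.069). The estimates were negative in MRPS16 (−0.075, SE 0.066), MRPS2 (−0.038, SE 0.078) and MRPS30 (−0.027, SE 0.075), all with overlapping groups. MRPS36, the dehydrogenase subunit, had 62.6 and 64.7 CPM in clofarabine and 54.2 and 51.4 CPM in DMSO. Its groups did not overlap, and its log2 fold change was 0.27 (SE 0.085, edgeR's adjusted p = 0.0993). The symbol MRPS24 (0.14, SE 0.078) shares its locus with a read-through gene, so its fragments may be divided between them.

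The members stood higher in C1 than in the other clofarabine library. Against the mean of the 4 libraries, the median large subunit gene stood at −0.024 in C0 and 0.13 in C1, against −0.049 in V0 and −0.048 in V1, on the log2 CPM scale. The median small subunit gene stood at −0.012 in C0 and 0.12 in C1, against −0.047 in V0 and −0.052 in V1. C1 was the highest library in both subunits, and C0 lay closer to the DMSO libraries than to C1. Over the 76 members the median difference was 0.019 for C0 over V0 and 0.034 for C0 over V1, against 0.18 for C1 over V0 and 0.17 for C1 over V1. Within the clofarabine group C1 exceeded C0 by a median of 0.13, while V1 exceeded V0 by 0.00064. C1 is also the deepest library, with 23888755 fragments beside 13175630 in C0, 8370550 in V0 and 11119379 in V1.

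Summed over the large subunit symbols, CPM came to 4774 in C0 and 5312 in C1, against 4675 in V0 and 4737 in V1. The small subunit sums were 3228 in C0 and 3499.9 in C1, against 3201 in V0 and 3214 in V1. The ratio of the large to the small subunit sum was 1.48 and 1.52 in clofarabine and 1.46 and 1.47 in DMSO, so the subunits kept nearly the same proportion in every library. In bulk RNA, a change in the number of cells that express a gene and a change in its RNA per cell cannot be told apart.

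**Figure D3:**
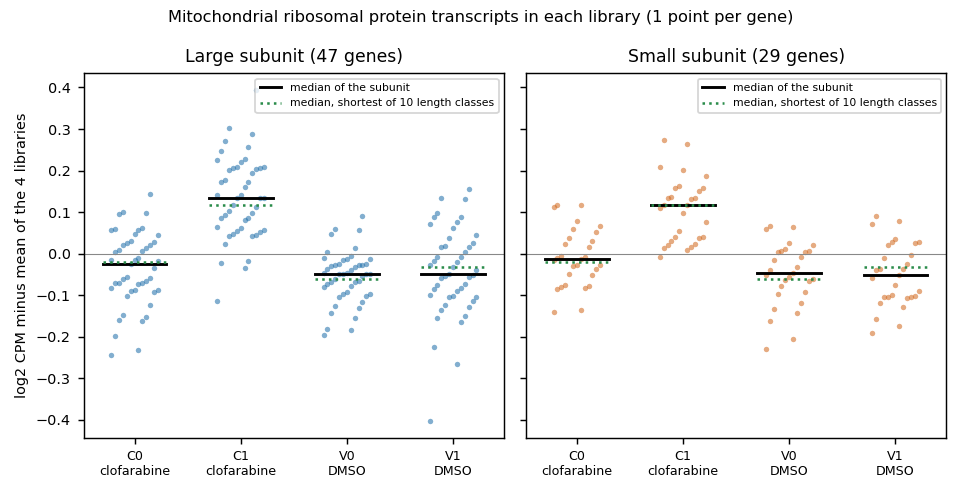
Log2 CPM minus the gene's mean over the 4 libraries (vertical axis) for each large subunit gene (left) and small subunit gene (right) in C0, C1 (clofarabine), V0 and V1 (DMSO). The solid bar is the median of the subunit and the dotted bar that of the shortest of 10 length classes of all tested genes. In both subunits the median of C1, at 0.13 and 0.12, stands above those of the other libraries, and the dotted bar follows it.

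Transcript length moved with these values. Relative length was taken as the authors' scaled fragments over FPKM, with the median tested gene at 1. The members were short, with a median of 0.36 (large subunit 0.34, small subunit 0.43), and 40 of the 76 were in the shortest of 10 equal length classes of the tested genes, at or below 0.372. The shortest were MRPL33 at 0.10, MRPS21 at 0.14, MRPS17 at 0.14 and MRPL41 at 0.15, and the longest were MRPL19 at 2.88, MRPS25 at 1.65 and MRPL30 at 1.63, followed by MRPS27 within the small subunit at 0.97. All 4 called members lay in the shortest class, where 78 of 1177 tested genes rose and 5 fell.

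Across the 76 members the correlation between log2 relative length and the log2 fold change was −0.34 (Pearson) and −0.37 (Spearman). It was −0.55 and −0.51 for C1 over C0 within the clofarabine group, and 0.14 and 0.066 for V1 over V0 within the DMSO group. Over all 11761 tested genes the Spearman value was −0.14 for the log2 fold change, −0.31 for C1 over C0 and −0.098 for V1 over V0. Against the mean of the DMSO libraries, the values for C0 were 0.15 and 0.058 over the 47 large subunit members and −0.39 and −0.32 over the 29 small subunit members, which pooled to −0.017 and −0.062. For C1 they were −0.45 and −0.50 over the large and −0.62 and −0.64 over the small subunit, which pooled to −0.51 and −0.54. Shorter members thus stood higher in C1 in both subunits, and in C0 in the small subunit, and the difference between the subunits was not tested. These points are genes that share the same 4 libraries and their depths, and the values are descriptions without a test. Of the long members, MRPL19 had 121 and 108 CPM in clofarabine and 98.8 and 110 CPM in DMSO, with C0 the highest library and overlapping groups (log2 fold change 0.12, SE 0.080). MRPS25, a mitochondria-specific protein, had 167 and 180.5 CPM in clofarabine and 159 and 154 CPM in DMSO, with C1 the highest library and no overlap (log2 fold change 0.15, SE 0.069, edgeR's adjusted p = 0.316). MRPL30 had 189 and 186 CPM in clofarabine and 169 and 179.9 CPM in DMSO, without overlap (log2 fold change 0.10, SE 0.067).

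The members' medians were higher than those of all tested genes by less than over all classes, both in the 2 shortest classes and in classes 3 to 10 together. In the shortest class the median log2 fold change was 0.15 for the 40 members and 0.091 for all 1177 tested genes. In the second class it was 0.077 for 16 members and 0.032 for all genes. In classes 3 to 10 it was 0.070 for the remaining 20 members, against −0.011 for all genes, but these members were shorter, with a median relative length of 0.73, against 1.195 for all genes of those classes. The part of transcript length in the members' values was not tested.

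**Figure D4:**
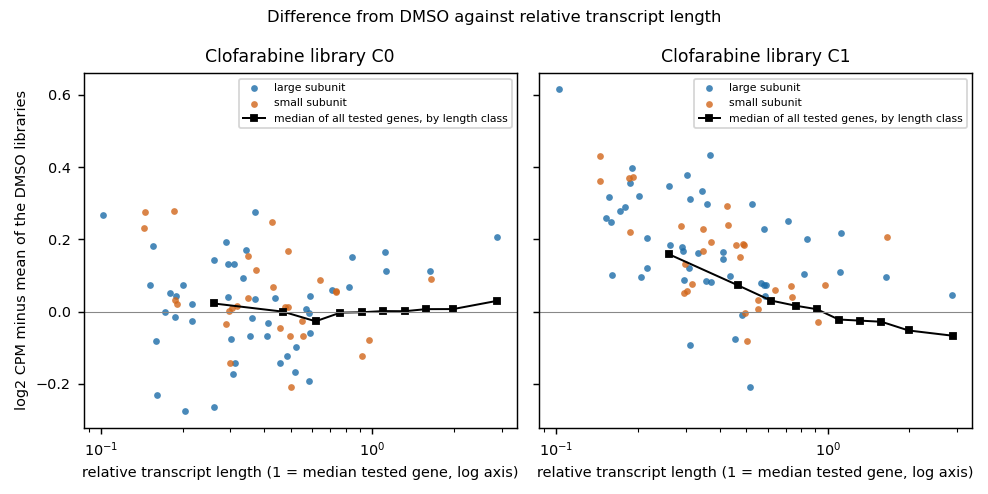
Log2 CPM of C0 (left) and of C1 (right) minus the mean of the DMSO libraries, against relative transcript length on a log axis, for large and small subunit members (points) and for the median of all tested genes in each of 10 length classes (squares). The Spearman correlation is 0.058 for the large and −0.32 for the small subunit in C0, and −0.50 and −0.64 in C1, where the medians of all genes fall with length.

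The count of called members turned on single libraries. Without C0, 21 members rose, including all 4 called with every library, where 3.82% of tested genes rose, and the median log2 fold change was 0.17. Without C1, only MRPL47 rose (log2 fold change 0.27, edgeR's adjusted p = 0.0345; background 1.52%), the median was 0.026 and 44 of 76 estimates were positive. Without V0, MRPL33 and MRPL47 rose (background 1.42%), and without V1 only MRPS21 (background 0.471%). With the trend of each library on transcript length removed, MRPL47 rose (log2 fold change 0.31, edgeR's adjusted p = 0.00136; background 2.19%), the median was 0.046 and 50 estimates were positive. With libraries thinned to equal depth MRPL47 and MRPS36 rose (background 1.23%), and DESeq2 called MRPL47 and MRPS21 (background 1.53%). MRPL33 had log2 fold changes of 0.27 without C1, 0.27 without V1 and 0.25 with the length trend removed, and with that trend removed MRPS21 was at 0.17 and MRPS33 at 0.19. MRPL47 lost its call on the FPKM scales (limma adjusted p = 0.123 and 0.117) and without V1 (edgeR's adjusted p = 0.210).

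Higher medians were found in other nuclear gene groups with short transcripts. Over all tested genes 1.54% rose and 1.03% fell, and in the shortest length class 78 of 1177 rose and 5 fell. Of 82 tested cytosolic ribosomal protein genes 21 rose and none fell, with a median log2 fold change of 0.22 and a median relative length of 0.19. Of 78 genes of the respiratory chain and ATP synthase 20 rose and none fell, with a median of 0.15 and a relative length of 0.24. In these groups C1 exceeded C0 by medians of 0.23 and 0.16, beside 0.13 for the mitochondrial ribosomal proteins. For all tested genes of the shortest length class that median was 0.14. The differences between these groups were not tested.

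Genes that act with the mitochondrial ribosome were described in the same way, beside the 1.54% of tested genes that rose and the 1.03% that fell. Of 7 of its proteins under other symbols none was called, with a median log2 fold change of 0.079. CHCHD1, of the small subunit, had 87.6 and 86.0 CPM in clofarabine and 73.5 and 70.2 CPM in DMSO, without overlap (log2 fold change 0.27, SE 0.078, edgeR's adjusted p = 0.0680). Of 26 assembly factors none was called and the median was −0.028. DDX28, an RNA helicase of large subunit assembly, was lower in both clofarabine libraries (−0.29, SE 0.096, edgeR's adjusted p = 0.134). Of 16 genes for translation factors and mRNA regulators, SLIRP, which stabilises mitochondrial mRNAs with LRPPRC, rose. It had 94.8 and 103 CPM in clofarabine and 74.3 and 71.0 CPM in DMSO (log2 fold change 0.45, SE 0.079, edgeR's adjusted p = 0.00167), and its relative length, 0.078, was below that of every member. With the length trend removed its log2 fold change was 0.21 (edgeR's adjusted p = 0.111).

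Of 20 mitochondrial aminoacyl-tRNA synthetases none was called, 5 estimates were positive, and the median log2 fold change was −0.086. MARS2, which charges mitochondrial methionine tRNA, had 22.3 and 17.96 CPM in clofarabine and 28.0 and 24.1 CPM in DMSO, lower in both (−0.38, SE 0.14, edgeR's adjusted p = 0.179). Their transcripts were longer, with a median relative length of 0.97. Of 12 genes of mitochondrial transcription and RNA processing none was called (median 0.010), including TFAM, which packages mitochondrial DNA and promotes its transcription (0.14, SE 0.065, edgeR's adjusted p = 0.317). In these lists without a call, an unadjusted edgeR p under 0.05 was reached as higher by 1 gene of the other-symbol proteins, 1 assembly factor and 2 transcription and processing genes, and as lower by 1 assembly factor and 3 synthetases. All tested genes reached it in 8.17% as higher and 6.06% as lower. DESeq2 called none of those to which it gave an adjusted p, 7 of 7 other-symbol proteins, 21 of 26 assembly factors, 18 of 20 synthetases and 10 of 12 transcription and processing genes, and it gave none to MARS2. Without C0, 1 synthetase fell, MARS2, at a log2 fold change of −0.53 (edgeR's adjusted p = 0.0217).

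Of 8 tested nuclear regulators of mitochondrial biogenesis, MYC fell and none rose, with a median log2 fold change of −0.042. MYC had 195 and 187 CPM in clofarabine and 292 and 298 CPM in DMSO (log2 fold change −0.63, edgeR's adjusted p = 1.9e-06). GABPA, the ETS subunit of GABP, showed a log2 fold change of 0.060 (SE 0.090, edgeR's adjusted p = 0.844) and NRF1 one of −0.046 (SE 0.098, edgeR's adjusted p = 0.902). Neither was separated between the groups.

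The libraries carried the markers of the line. The 11 K562 markers reported here, among them embryonic and fetal globins, GATA1 and TAL1, were at 58.4 CPM or above in every library, and summed to 25771 and 30106 CPM in clofarabine and 26466 and 28154 CPM in DMSO. Of the 11, GATA1 and HBA2 fell by edgeR's test and none rose. Of 9 markers of other cell types, 5 were under 1 CPM in every library, and the 9 markers summed to 464 and 511 CPM in clofarabine and 472 and 504 CPM in DMSO. Most of that came from the epithelial markers EPCAM, at 70.8 to 75.2 CPM, and KRT18, at 386 to 434 CPM, neither of which was called.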

How the data were processed

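RNA of K562 cells was sequenced from directional NEBNext libraries of total RNA, per the labels' protocols, in 2 clofarabine and 2 DMSO samples. Per the submitters' processing notes, cutadapt 1.5, TopHat2 2.0.13, Cuffdiff 2.2.1 and hg19 were used. For RNA selection, gene annotation and strandedness of the counting, no statement is given in the sources used here, and overlapping and antisense genes may share fragments. Per the file headers, the deposited table holds, for each gene and library, estimated counts of fragments (between 384 and 451 genes per library not whole), the authors' scaled fragments (a signal) and the authors' FPKM. A failed status is given for 6 genes, none of them a member. The numbers 0 and 1 could not be tied to the labels' replicate numbers, so libraries served as members of their group only.

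Estimated counts were rounded to whole numbers. Libraries held between 8370550 and 23888755 fragments. A chi-square statistic per degree of freedom of 6.55 between C0 and C1 and of 2.73 between V0 and V1 exceeded sampling noise, and no libraries were combined. Genes that passed filterByExpr (minimum count 10) were tested in edgeR 4.0.16 (R 4.3.3) by its quasi-likelihood test, with TMM scaling (factors 0.968 to 1.02) and group as the only term. The biological coefficient of variation was 6.01%. An adjusted p (Benjamini-Hochberg over 11761 genes) under 0.05 made a call. Standard errors are the log2 fold change over the root of F, and 95% intervals use edgeR's degrees of freedom. Log2 CPM used a prior count of 2. The edgeR and DESeq2 fits and the removal of the length trend were also run on simulated counts. These had the same dispersion for every gene, with known changes and a length trend in C1 put in. They cannot decide how the fits behave on the deposited libraries, whose spread differed between the groups.

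The members, the other gene lists and the tests were chosen with earlier results of these data known, and count as descriptions. The text names the called members, in each subunit the 4 most positive and 4 most negative estimates, the 2 highest and 2 lowest FPKM levels and the 2 shortest and 2 longest transcripts, members picked by role, and from each other list up to 2 called genes per direction or the gene of smallest p, with MYC, GABPA and NRF1. Alternatives were DESeq2 size factors, library size only, no filter, DESeq2 1.42.0, limma 3.58.1 on log2(FPKM + 1) and log2(FPKM + 0.1), removal of a loess trend (span 0.3) on transcript length, thinning to 8370550 fragments with seed 1, each library left out, the library number as a block, thresholds of 0.01 and 0.1, and assignment to subunits by structure. Promoter sequences were taken from RefSeq (GRCh38.p14).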

Additional observations from a re-analysis of the deposited data

How the results depend on the processing

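In place of 302 called genes (181 higher, 121 lower), 478 were called with no filter, 168 with DESeq2, 56 (19 higher, 37 lower) on log2(FPKM + 1), 72 on log2(FPKM + 0.1), 480 with the length trend removed, 796 with the block, 128 at 0.01 and 466 at 0.1, and library size only gave 170 higher and 200 lower. Leaving out libraries gave between 130 (without V1) and 636 (without C0).

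Called large subunit members numbered 2 in the fit of all libraries, 1 with DESeq2, the trend removed, thinning or a threshold of 0.01, 0 on both FPKM scales, 7 with the block and 0 (without V1) to 16 (without C0) when leaving out libraries. Called small subunit members numbered 2, against 1 with library size only, DESeq2 or thinning, 0 on both FPKM scales, with the trend removed or at 0.01, 4 with the block or at 0.1, and 0 (without C1 or V0) to 5 (without C0). The share of all tested genes that rose was 1.54% in the fit of all libraries, 4.20% with the block and 1.45% with library size only. That share was 0.162% on log2(FPKM + 1), 0.230% on log2(FPKM + 0.1), 0.493% at 0.01 and 2.41% at 0.1. The shares with DESeq2, the trend removed, thinning and leaving out libraries are given above. The subunit medians kept their sign throughout. Leaving out libraries moved the large subunit median between 0.032 (without C1) and 0.17 (without C0) and the small subunit median between 0.020 and 0.17. The difference of the medians, 0.030, was −0.0036 with the trend removed, −0.0011 when thinned and between −0.0029 and 0.041 when leaving out libraries. The Spearman correlation of the members with length, −0.37, was −0.038 for C0 over V0, −0.071 for C0 over V1, 0.066 for V1 over V0 and −0.062 for C0 over the DMSO mean.

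The block tested the library number as a pairing. Deviations from the group means correlated by −0.0038 over genes for same-numbered libraries and by 0.0038 for the others. With 2 libraries per group these are the same value with its sign turned. They cannot decide whether the numbers pair the libraries. With the block, lists without a call gained 1 lower synthetase, 1 higher and 1 lower assembly factor and 1 higher other-symbol protein.

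Of 750 values of 50 named genes under the alternatives, 658 kept sign and side of the threshold, 31 lost a call, 22 gained one and 39, in 21 genes, reversed, none with an estimate above 0.18 in size. The reversed log2 fold changes were as follows, and the cause was not tested. With library size only, MRPS12 was at −0.010 and MRPS27 at −0.034. MRPS27 was at −0.0024 on log2(FPKM + 1) and −0.0025 on log2(FPKM + 0.1). With the trend removed, MRPL40 was at −0.020, MRPL48 at −0.013, MRPS12 at −0.052 and MRPS24 at −0.00026. When thinned, MRPL10 was at 0.027, MRPL44 at 0.014, MRPS27 at −0.014 and MRPS30 at 0.079. Leaving out libraries put GABPA between −0.093 (without V1) and 0.21 (without V0), MRPL1 between −0.029 (without V1) and 0.17 (without V0) and MRPL10 between −0.075 (without V0) and 0.062 (without V1). The same step put MRPL11 between −0.10 (without C1) and 0.30 (without C0), MRPL12 between −0.18 (without C1) and 0.12 (without C0) and MRPL23 between −0.29 (without C1) and 0.087 (without C0). It put MRPL24 between −0.27 (without C1) and 0.19 (without C0), MRPL40 between −0.029 (without C1) and 0.21 (without C0) and MRPL44 between −0.20 (without C1) and 0.069 (without C0). Likewise it put MRPL45 between −0.038 (without V0) and 0.12 (without V1), MRPL46 between −0.086 (without C1) and 0.37 (without C0) and MRPS12 between −0.0095 (without V0) and 0.060 (without V1). It also put MRPS14 between −0.045 (without V1) and 0.13 (without V0), MRPS15 between −0.037 (without C1) and 0.24 (without C0) and MRPS2 between −0.11 (without V0) and 0.034 (without V1). It further put MRPS27 between −0.080 (without C1) and 0.076 (without C0), MRPS30 between −0.070 (without C1) and 0.0083 (without C0) and MRPS7 between −0.048 (without C1) and 0.19 (without C0). Last, it put NRF1 between −0.15 (without V0) and 0.072 (without V1).

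A group left with 1 library was assumed to vary like the other. Standard errors of single members ran from 0.064 to 0.12, and the 95% interval of 53 of the 76 members included 0.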
